A study of Caenorhabditis elegans with 2 samples.

Results

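The 500 strongest nuclear peaks of LIN-13 chromatin immunoprecipitation (ChIP-seq) were described in whole fourth-stage (L4) larvae of Caenorhabditis elegans. They were selected on the signal value that the authors' peak caller gave each peak in the pooled data. Of the 2141 peaks kept by the irreproducible discovery rate (IDR) step, which selects peaks called in a similar order in both replicates, 2121 were nuclear, and ranks 1 to 500 by signal value were kept. The remaining 1621 nuclear IDR peaks, of lower rank, served for comparison. All animals were of strain OP49 with the unc119(ed3) allele. It holds the transgene wgIs49, written lin-13::TY1 EGFP FLAG;unc119 in the labels, from which LIN-13 is made with TY1, EGFP and FLAG tags and which carries unc119 as well. Both sexes were pooled, and the labels give whole organisms as the material and no treatment. Chromatin with fragments of 150 to 350 bp was immunoprecipitated and sequenced in 2 biological replicates that formed 1 group. The labels describe the ChIP-seq as against eGFP-lin-13, so the peaks are those of the tagged protein. Each peak value therefore comes from pooled animals of 1 transgenic strain. More cells with LIN-13 at a site and more LIN-13 per cell cannot be told apart.

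LIN-13, a protein with many zinc fingers, belongs to the synMuv B class of genes that restrain vulval fate in the larval epidermis and keep germline genes silent in somatic cells. Several synMuv B proteins are subunits of the DREAM complex, which joins the retinoblastoma protein LIN-35, E2F-DP and the MuvB core on promoters of cell cycle genes. LIN-13 itself is known to act with the heterochromatin protein HPL-2 and with LIN-61. In nematodes, annotated 5' ends often mark trans-splice sites rather than transcription starts, since a spliced leader RNA replaces the first part of many transcripts.

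Sequence around the summits of the highest peaks is shown first, since these peaks carry most of the description. Each line gives 121 bases centred on the summit, from the plus strand of the WBcel235 genome (build ce11), 5′ to 3′. The first set comes from peaks at ranks 1, 3, 4 and 5, and is shown because the same short words recurred in them. Capitals mark AGTGTA and AGCGTG, on either strand, so that TACACT and CACGCT are the same words read from the other strand.
rpl-3 at chrIII:3867520-3867640: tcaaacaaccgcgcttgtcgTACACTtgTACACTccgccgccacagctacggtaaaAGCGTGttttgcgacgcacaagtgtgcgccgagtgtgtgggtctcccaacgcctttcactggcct
cdc-48.1 at chrII:10563518-10563638: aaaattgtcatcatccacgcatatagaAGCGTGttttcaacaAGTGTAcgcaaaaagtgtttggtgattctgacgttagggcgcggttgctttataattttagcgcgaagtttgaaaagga
rpl-35 at chrIII:7854629-7854749: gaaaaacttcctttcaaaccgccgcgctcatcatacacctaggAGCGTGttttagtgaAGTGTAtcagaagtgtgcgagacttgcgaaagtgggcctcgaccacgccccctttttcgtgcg
rpl-15 at chrIV:654859-654979: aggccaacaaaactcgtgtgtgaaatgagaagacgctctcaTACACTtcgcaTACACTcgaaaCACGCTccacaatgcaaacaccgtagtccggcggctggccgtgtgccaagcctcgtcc

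These words were noticed in the windows of the highest peaks, so their frequencies are a description and carry no test. AGTGTA lay in 17% of the windows of ranks 1 to 100, in 11.2% of the 500 windows and in 8.58% of the other nuclear IDR windows, each 201 bp long, against 6.98% of genome tiles of that length. AGCGTG lay in 15%, 10.6% and 8.08% of them, against 2.74% of tiles. On X, AGTGTA lay in 4 of 89 windows of the 500 (4.49%) and in 6.27% of the others, against 8.18% of X tiles. On autosomes it lay in 12.65% and 9.04%, against 6.73% of autosomal tiles. AGCGTG lay in 8.99% of the X windows of the 500 and in 10.3% of the others, against 3.08% of X tiles. Its autosomal shares were 10.95% and 7.63%, against 2.67% of autosomal tiles. Among the 29 summits of the 500 at 5' ends of cytosolic ribosomal protein genes, 5 had AGTGTA and 3 had AGCGTG. At the other 279 promoter summits of the 500 each word was found at 32, so neither word was limited to ribosomal protein genes.

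The second set comes from the X chromosome, and is shown because a longer word, GCGCAGGG (CCCTGCGC on the other strand), was found there. Capitals mark that word. It is the core of a motif known from the recruitment elements of the dosage compensation complex, the condensin-containing machinery that lowers X-linked transcription in hermaphrodites.
W02H3.3 at chrX:11094154-11094274: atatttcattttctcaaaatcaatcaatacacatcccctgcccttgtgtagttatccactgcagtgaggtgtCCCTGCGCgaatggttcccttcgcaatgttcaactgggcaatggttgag
cest-16 at chrX:6296473-6296593: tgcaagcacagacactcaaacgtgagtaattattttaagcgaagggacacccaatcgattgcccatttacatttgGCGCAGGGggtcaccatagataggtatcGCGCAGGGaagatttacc
F20B6.9 at chrX:4209212-4209332: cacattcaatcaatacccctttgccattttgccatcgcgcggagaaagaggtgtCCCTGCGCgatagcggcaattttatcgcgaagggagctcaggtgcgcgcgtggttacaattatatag
gtr-1 at chrX:806636-806756: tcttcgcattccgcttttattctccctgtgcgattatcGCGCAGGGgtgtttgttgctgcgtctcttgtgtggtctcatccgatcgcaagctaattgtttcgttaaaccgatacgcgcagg

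GCGCAGGG lay in 9 of the 89 windows of the 500 on the X chromosome (10.1%) and in 0 of the 411 on autosomes. Among the remaining nuclear IDR windows it lay in 8 of 271 on X and in 2 of 1350 on autosomes. It was found in 0.0851% of genome tiles of X and in 0.0553% of those of autosomes. Of the 24 X peaks in ranks 1 to 100, 7 held it. The 9 peaks were nearest to W02H3.3, cest-16, F22H10.2, Y41G9A.17, F20B6.9, gtr-1, C41A3.2, nspc-17 and ins-39, and 8 of the 9 were intergenic or intronic. This word too was noticed in the windows before it was counted, and a match in these letters is not a shown binding site. Of the X peaks of the 500, 39 of 89 (43.8%) were at promoters and 32 (36.0%) intergenic, beside 269 (65.5%) and 66 (16.1%) of the 411 autosomal ones. The remaining IDR peaks had the same order, with 38.4% of X summits and 53.3% of autosomal summits at promoters. The X and autosomal shares were not tested.

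The third set shows GCGCGC, in capitals, the motif of the 10 searched whose share was higher in the 500 than in the other peaks in the test given with the motifs.
ska-3 at chrIII:5679091-5679211: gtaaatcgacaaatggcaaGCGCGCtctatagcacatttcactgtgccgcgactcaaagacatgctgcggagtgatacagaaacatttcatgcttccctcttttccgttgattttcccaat
Y77E11A.7 at chrIV:1420242-1420362: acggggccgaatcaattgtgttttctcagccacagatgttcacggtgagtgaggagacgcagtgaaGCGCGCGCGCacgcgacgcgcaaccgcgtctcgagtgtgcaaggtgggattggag
hsp-1 at chrIV:17278550-17278670: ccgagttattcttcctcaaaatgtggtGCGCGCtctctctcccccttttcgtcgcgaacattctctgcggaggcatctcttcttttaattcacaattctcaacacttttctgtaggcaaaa

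The peak with the highest signal value lay upstream of rpl-3, which encodes a protein of the large ribosomal subunit. Its signal value was 634.7 in the pooled list, 292.8 in replicate 1 and 342.9 in replicate 2, and it ranked first in both. The peak (chromosome III, 3867437 to 3867723) was centred 274 bp upstream of that gene. The peak at tasp-1, the worm taspase gene, followed in all 3 lists, with 512.9 pooled, 270.7 in replicate 1 and 243.6 in replicate 2. At cdc-48.1, encoding the AAA ATPase that extracts proteins for degradation, the values were 412.1, 262.3 and 151.7, so that 63.4% of the replicates' sum came from replicate 1. The scaling of these values is not given in the sources used here, and depth per replicate is unknown.

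Ribosomal protein genes took several of the next ranks. The rpl-35 peak (393.5 pooled, 199.3 in replicate 1, 195.5 in replicate 2) and the rpl-15 peak (381, 220.2 and 167.4) ranked between 3 and 5 in each replicate. The rpl-15 summit lay near K11H12.8 too. A peak between Y17G9B.5 and rpl-20 had 307.9, a peak between hsr-9, a DNA damage response gene, and rps-19 had 268.7, and one upstream of rps-1 had 250.5. Energy metabolism and translation were represented beside them. Cytochrome c oxidase subunit genes had peaks at cox-5B (285.9), cox-5A (256.4) and, shared with Y71H2AM.20, cox-6B (235.9). The translation factor genes drr-2 (285.8, shared with the histone methyltransferase gene set-16) and iff-2 (268.9), which encode homologues of mammalian initiation factors, ranked 12 and 15.

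Not all of the 25 highest peaks lay at promoters. The peak nearest to lin-13 itself was intergenic, 782 bp upstream of the gene, with 285.6 pooled, 159.8 in replicate 1 and 125.1 in replicate 2. The strain also carries lin-13 as a transgene, whose part in this value was not tested. The marker gene unc-119 had no such peak. The IDR peak nearest to it lay 53616 bp away, at fbxb-85 and hex-3, with rank 475. K12H4.5 (324.8) had its summit just outside the promoter window, which ends 500 bp from a 5' end. W02H3.3 (281.2) and F55G7.5 (242.1) on X, mgrn-1 (238.5) on X and C07H6.9 (245.4) on III were intergenic. The peak nearest to C34C12.1 (244.8) lay in an annotated 5' UTR outside any promoter window. The rest of the 25 were at promoters of serp-1.1 (304.6), F33H1.4 (297.2), Y39B6A.43 (296), puf-9, a Pumilio-family RNA-binding protein gene (267.5), and vig-1, a gene of the RNA interference machinery (246.6).

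**Figure D1:**
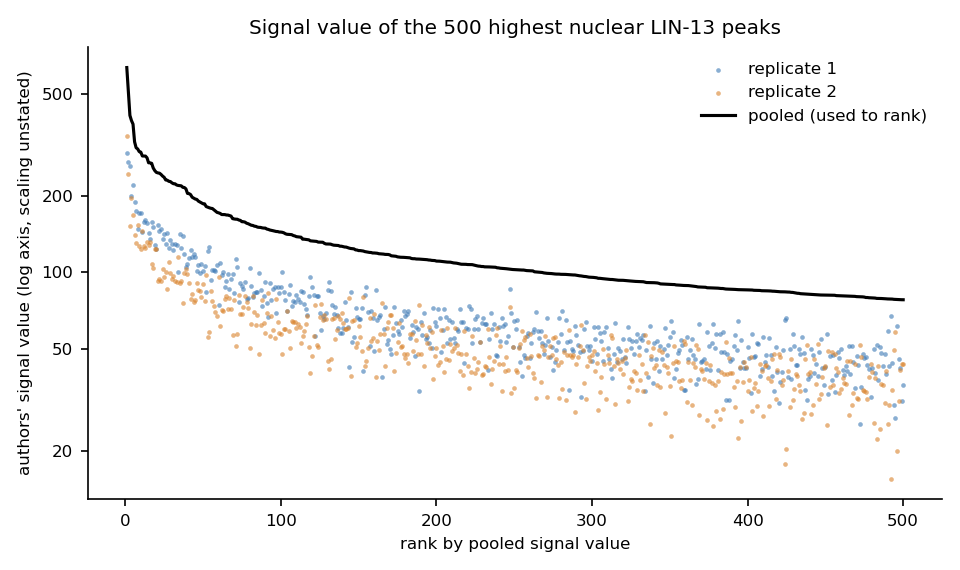
The authors' signal value (vertical log axis, scaling unstated) of each of the 500 peaks against its rank by pooled value, with the pooled value as a line and the matched peak of each replicate as points. The pooled value drops from 634.7 at rank 1 to 78.18 at rank 500, and replicate 1 is the higher replicate for 380 of the 500 peaks. It is also the higher for 1152 of the other 1621 nuclear IDR peaks, which are not drawn.

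Signal values of the 500 ran from 78.18 to 634.7 with a median of 102.6, and those of the other peaks from 40.1 to 78.09 with a median of 51.55. There was no gap at the limit. The last peaks inside were at C34E10.10 and atp-2 (78.2), rsp-8 (78.2) and edc-4 (78.18), and the first outside were at mrps-7 (78.09), sca-1 (77.9) and Y46E12BL.2 (77.9). Because rank defines the groups, no difference in signal was tested.

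The replicates are part of the pooled value that selected the peaks, so their ranks are described and not tested. All 500 peaks overlapped a peak of each replicate's relaxed list, which holds 30000 peaks, by at least 1 bp. So did 1618 of the other 1621 nuclear IDR peaks for replicate 1 and 1617 of them for replicate 2. Of the 500, 325 (65%) were within the 500 highest nuclear peaks of both replicates, against 15.9% of all nuclear IDR peaks, 92 in those of replicate 1 alone, 73 in those of replicate 2 alone and 10 in neither. That count followed rank. It was 100 of ranks 1 to 100, 96 of 101 to 200, 80 of 201 to 300, 44 of 301 to 400 and 5 of 401 to 500. When an overlap of 50% of both peaks was required, in place of 1 bp, the share of 65% became 47.6%. Replicate 1 gave a median of 55.4% of the summed value, with a range of 31.4 to 81.2%. In the other nuclear IDR peaks its median was 56.65%.

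A few peaks had ranks far apart in the 2 replicates. The intergenic peak nearest to lgg-1, an autophagy gene of the Atg8 family, ranked 160 in replicate 1 (67.27) and 3205 in replicate 2 (15.59). The F44E5.4 peak ranked 180 and 2458, and the peak 275 bp upstream of seip-1, the seipin gene, 203 and 1973. In the other direction stood rbm-34 (1939 in replicate 1 and 200 in replicate 2), the Mediator subunit gene mdt-26 (1734 and 147) and ikke-1 (1335 and 233). All 6 had pooled ranks between 424 and 496. Of the summed value, replicate 1 gave 81.2% at lgg-1, 78.5% at F44E5.4 and 75.6% at seip-1. It gave 32.9% at rbm-34, 31.5% at mdt-26 and 38% at ikke-1.

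**Figure D2:**
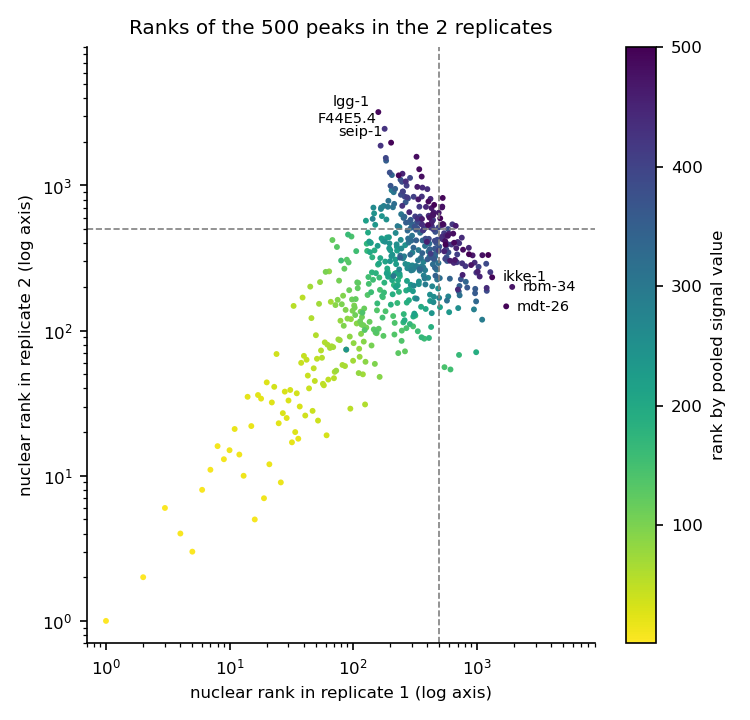
Nuclear rank of each of the 500 peaks in replicate 1 (horizontal, log axis) and replicate 2 (vertical, log axis), coloured by pooled rank, with dashed lines at rank 500. The highest peaks lie near the diagonal, 325 peaks lie below both lines, and the named peaks are those with the widest differences in rank.

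Peaks narrower than the commonest width were mostly among the strongest, but width did not fall steadily with signal. Most pooled peaks had 1 common width of 336 bp. Of the 500, 153 (30.6%) were narrower, 346 had that width and 1, nearest to tba-7, was wider at 413 bp, while 7 of the other 1621 (0.432%) were narrower. The share narrower was 89% in ranks 1 to 100, 37% in 101 to 200, 15% in 201 to 300, 8% in 301 to 400 and 4% in 401 to 500. The narrowest, at 84 bp, included peaks nearest to skn-1, an Nrf-family stress response gene (signal value 158), and F56C3.1 (146.6). The rpl-3 peak at rank 1 was 287 bp wide, and the tba-7 one had rank 35. In the relaxed lists of the replicates, matched peaks of the 500 were narrower than the commonest width in 76 cases for replicate 1 and 60 for replicate 2. Width comes from the same peak call as signal and was not tested. Narrow peaks made up 28.1% of those with a neighbouring summit within 2 kb and 31.5% of those without.

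Position was not used to select the peaks and could be tested. Fisher's exact tests, two-sided, compared the 500 with the other 1621, and 95% intervals are Clopper-Pearson ones, for counting error alone. Summits were treated as independent although they cluster, which makes the p-values too small, and they do not measure spread between animals.

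Promoters held more of the 500 summits than of the others. Promoter summits, within 500 bp of the start of a protein-coding transcript, numbered 308 of 500 (61.6%, 57.2 to 65.9%), against 823 of 1621 (50.8%, 48.3 to 53.2%; Fisher's exact p = 2.54e-05). Such windows take up 23.1% of nuclear bases, and 30.6% of the relaxed pooled peaks outside the IDR list lay in them. Of the promoter summits of the 500, 286 (92.9%) were upstream of the nearest 5' end, against 86.5% of the others. Introns held 61 summits (12.2% against 16.5%, adjusted Fisher's exact p = 0.0688 over 7 classes) and intergenic sequence 98 (19.6% against 23.9%, adjusted p = 0.104). Coding exons held 3, 3' UTRs 5, 5' UTRs 1 and the exons of pseudogenes and non-coding RNAs 24, and none of these classes passed. Ranked on replicate 2 alone, the promoter class was 58.2% against 51.9% and did not pass over the 7 classes (adjusted Fisher's exact p = 0.0687). With a window of 200 bp the promoter difference did not pass (32.2% against 28.3%, Fisher's exact p = 0.0917). Against the next 500 peaks alone it was 61.6% against 54.2%, which did not pass over the 7 classes (Fisher's exact p = 0.0211 singly, adjusted p = 0.148).

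Promoters shared by 2 or more genes were also more frequent. Among promoter summits, 106 of 308 (34.4%) were within 500 bp of 5' ends of 2 or more protein-coding genes, against 192 of 823 (23.3%; Fisher's exact p = 0.000261). Examples are lin-54 with rpl-12 (212.5 pooled, 105 in replicate 1, 102.9 in replicate 2), hsp-90 with C47E8.4 (185.8, 101.7 and 89.73) and atp-1 with mcrs-1 (173.9, 101.5 and 69.76). Which of the genes a summit belongs to cannot be told apart at such sites. Against the next 500 peaks the difference did not pass (34.4% against 29.2%, Fisher's exact p = 0.182).

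The 500 summits also had more close neighbours and lay less often on repeats. Another nuclear IDR summit lay within 2 kb of 128 (25.6%), against 305 of the others (18.8%; Fisher's exact p = 0.00121), and for 51 of the 500 that neighbour was itself among the 500. The neighbour difference did not pass within 1000 bp (10% against 7.53%, Fisher's exact p = 0.0911), nor with the 250 highest peaks (25.2% against 19.8%, Fisher's exact p = 0.0543) or the 1000 highest (22.1% against 18.9%, Fisher's exact p = 0.0749) set against the rest. Soft-masked repeats held 70 summits (14%) against 303 (18.7%; Fisher's exact p = 0.0156), with 35.7% of nuclear bases masked. That call ended against the next 500 peaks (16.4%, Fisher's exact p = 0.333) and among peaks of the commonest width (16.2% against 18.5%, Fisher's exact p = 0.318). No chromosome passed the test over 6 (Fisher's exact test, smallest adjusted p = 0.275, for chromosome II with 13.6% against 17.5%). At an unadjusted p under 0.05, 1 of the 6 was called.

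**Figure D3:**
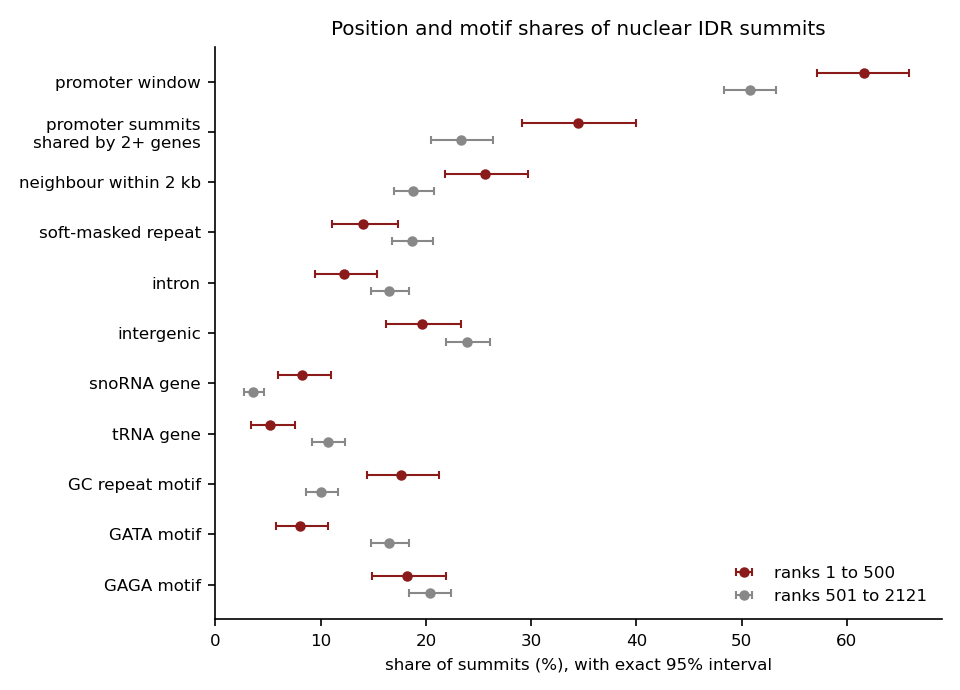
Share of summits (%) with each property in ranks 1 to 500 (red) and in the nuclear IDR peaks of lower rank (grey), with exact 95% intervals as bars. The 500 are higher for promoter windows (61.6% against 50.8%), shared promoters, neighbours, snoRNA genes and the GC repeat motif, and lower for repeats, tRNA genes and the GATA motif.

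Small RNA genes divided by kind. Summits of the 500 were more often within 500 bp of the 5' end of a snoRNA gene, whose products guide chemical modification of ribosomal RNA, with 41 (8.2%) against 58 (3.58%; Fisher's exact test, adjusted p = 0.000257 over 5 kinds). They were less often at a tRNA gene, with 26 (5.2%) against 173 (10.7%; adjusted Fisher's exact p = 0.000369). These windows cover 0.332% and 0.533% of nuclear bases. Among snoRNA genes the highest peaks were at F54E7.10, beside rps-12 and ska-3 (203.6 pooled, 113.5 in replicate 1, 91.33 in replicate 2), Y53F4B.47, beside cmtr-1 (162.5, 98.22 and 57.12) and F59C6.15 (159.9, 90.61 and 68.74). Of the 41 summits, 16 were also promoter summits of a protein-coding gene and 4 of a ribosomal protein gene. Many worm snoRNAs lie within other genes, so these 2 kinds of position overlap. The highest tRNA peak, at rank 100, was in an intron, with 143.9 pooled, 87.97 in replicate 1 and 57.56 in replicate 2, and 13 of the 26 tRNA summits (50%) were on X, beside 77 of 173 (44.5%) in the other peaks. On soft-masked bases were 11 of the 26, beside 21 of the 173, which was not tested. Reads from near-identical tRNA copies may be shared between them. Against the next 500 peaks the snoRNA difference did not pass (8.2% against 5.6%, adjusted Fisher's exact p = 0.335), while the tRNA difference did (5.2% against 10.4%, adjusted Fisher's exact p = 0.0149). The snoRNA difference also did not pass with the 250 highest peaks (7.6% against 4.28%, adjusted Fisher's exact p = 0.0625), nor the tRNA difference with the 1000 highest (7.8% against 10.8%, adjusted Fisher's exact p = 0.0515). Among promoter summits only, neither passed (snoRNA adjusted Fisher's exact p = 0.0589, tRNA adjusted p = 0.145). Among summits outside promoter windows both passed. There snoRNA genes had 13% against 4.76% (adjusted Fisher's exact p = 0.000524) and tRNA genes 9.9% against 16.9% (adjusted Fisher's exact p = 0.0368).

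Among snRNA-class genes, 9 of the 500 summits (1.8% against 1.36%) did not pass the test (adjusted Fisher's exact p = 0.522). The leading ones were at sls-2 genes, which encode the SL2 leader spliced onto downstream genes of operons. The sls-2.1 peak had 220.1 pooled, 128.4 in replicate 1 and 92 in replicate 2, sls-2.4 had 157.4 and sls-2.8, beside tim-1, had 153.1. In all, 5 of the 9 were at sls-2 genes, beside 7 of 22 in the other peaks, which was not tested. MicroRNA genes had 3 summits (0.6% against 1.11%, adjusted Fisher's exact p = 0.522), the highest at cel-mir-5549, beside rfc-4 and eef-1A.1 (134.5). Other non-coding RNA genes had 114 (22.8% against 19.4%, adjusted Fisher's exact p = 0.163), led by those beside puf-9, rps-1 and trap-3. They passed among peaks of the commonest width (26% against 19.3%, adjusted Fisher's exact p = 0.0164).

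Of 10 motifs searched on both strands within 100 bp of the summit, the GC repeat GCGCGC was more frequent at the 500 and the GATA-type motif TGATAA less frequent. GCGCGC was in 88 windows (17.6%) against 163 (10.1%; Fisher's exact test, adjusted p = 5.84e-05 over 10 motifs), with 1.29% of genome tiles holding it. TGATAA was in 40 (8%) against 268 (16.5%; adjusted Fisher's exact p = 9.58e-06), with 17.9% of tiles. GATA sites are the recognition sequence of GATA factors such as those of the intestine. The other 8 did not pass. These were GAGAGAG (18.2% against 20.4%), GCGNGAA (E2F-like, 15.2% against 14.7%), TTTGAA (CHR-like, 35.4% against 34.6%), CCGCCC (SP1-like, 12.8% against 10.5%), CACGTG (E-box, 6.2% against 7.22%), TGANTCA (AP-1, 3.8% against 4.44%), GAANNTTC (HSF-like, 10.2% against 9.13%) and TTTTTTTT (T-block, 10.8% against 13.8%). GCGCGC can overlap GCGNGAA by shared letters. The windows of the 500 had a median GC content of 45.3%, against 42.8%. Stratified by GC content, the weighted differences were 5.94 points for GCGCGC and -6.04 points for TGATAA, and both calls held in a Mantel-Haenszel test. GAGAGAG (-5.8 points) and TTTGAA (6.05 points) passed in the stratified test and not in the unstratified one. Their signs were not stable. Among peaks of the commonest width the differences were 2.1 points for GAGAGAG and -3.59 points for TTTGAA, and neither passed there. Against the next 500 peaks neither GCGCGC nor TGATAA passed (15% and 10.8% there, adjusted Fisher's exact p = 0.643 for each).

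**Figure D4:**
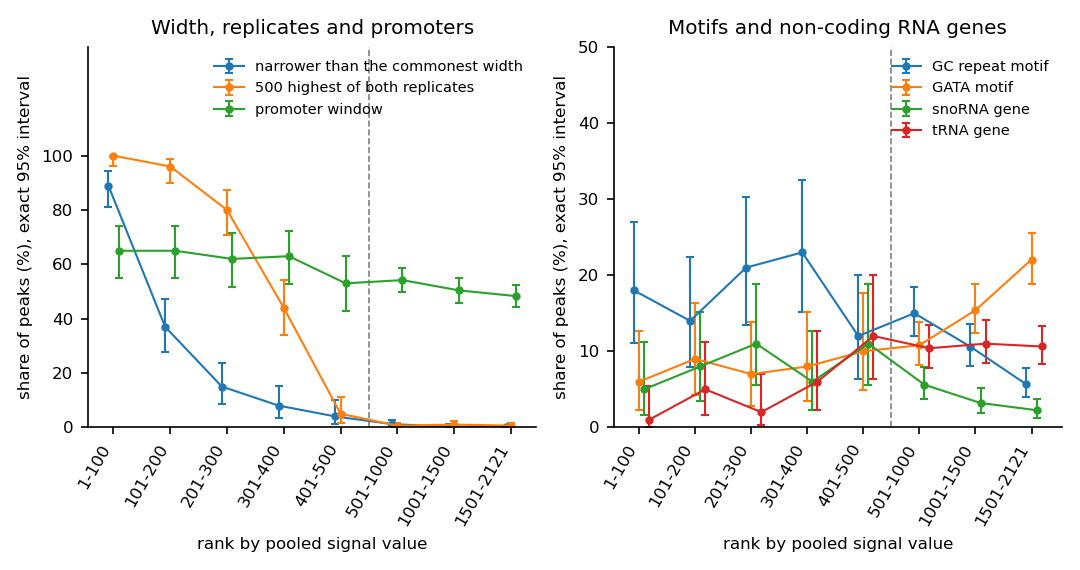
Share of peaks (%) by rank interval, with exact 95% intervals as bars and the limit at rank 500 as a dashed line. On the left, the share narrower than the commonest width drops from 89% in ranks 1 to 100 to 4% in 401 to 500. The promoter share is 65% in ranks 1 to 100, 53% in 401 to 500 and 48.3% in the last interval. On the right, GATA rises to 22.1% in ranks 1501 to 2121, where GC repeat is at 5.64%, snoRNA at 2.25% and tRNA at 10.6%.

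Several of the differences continued below rank 500. The GATA share was 6 to 10% in each 100 ranks of the 500, 10.8% in the next 500, 15.4% in 1001 to 1500 and 22.1% in 1501 to 2121. The GC repeat share in those last 3 intervals was 15%, 10.6% and 5.64%. For tRNA genes the share was 1% in ranks 1 to 100 and 12% in ranks 401 to 500, beside 10.4% in the next 500. The promoter share was 62 to 65% in each 100 ranks up to rank 400. In ranks 401 to 500 it was 53%, beside 54.2% in the next 500.

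Of 19973 protein-coding genes, 413 (2.07%) had one of the 500 summits within 500 bp of a 5' end, and 1397 (6.99%) had any nuclear IDR summit. The counts of gene lists below are to be read beside these shares and carry no test, since the lists were chosen with earlier results of these data known. Of the 500 summits, 192 had 0 such genes, 202 had 1, 103 had 2 and 3 had 3. The nearest genes of the 500 were 474 different ones.

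Genes of protein synthesis held many of the highest peaks. Of 81 cytosolic ribosomal protein genes, 31 (38.3%) were at the 500 and 59 (72.8%) at any IDR summit. Those 31 genes shared 29 summits, with rpl-24.1 and rps-10 at one (137.9) and rpl-39 and rps-30 at another (79.78). After the leading peaks given above came rps-28 (187.3 pooled, 107.5 in replicate 1, 80.32 in replicate 2), rps-23 (170.3, 108.5 and 61.86) and rps-20 (166.3, 94 and 71.69), and the lowest was rpl-6 (78.84). Their summits lay some way upstream, and with a window of 200 bp only 6.17% of the 81 genes were counted. Translation elongation factor genes had 5 of 10, namely eef-1A.1 (134.5), eef-1B.1 (126.7), eef-2 (123.7), eef-1G (121.3) and eef-1A.2 (110.4). Most of these peaks were shared, eef-1A.1 with rfc-4, eef-1B.1 with aco-2, eef-2 with clsp-1 and eef-1G with ctf-4. The eef-1G peak was uneven, with 40.99 in replicate 1 (rank 614) and 80.38 in replicate 2 (rank 54). Initiation factors had 4 of 35, mitochondrial ribosomal proteins 2 of 70 and aminoacyl-tRNA synthetases 1 of 31 (ears-2, 122.4). The last 2 lists were thus close to the 2.07% of all genes.

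Protein folding and degradation genes were also among those at the 500. Of 8 genes of the CCT chaperonin, which folds actin and tubulin, 4 were at the 500, with cct-8 at 154.2 and cct-7 at 125.1. All 4 peaks were shared, cct-8 with Y55F3AR.2, cct-7 with T10B5.4, cct-1 with mig-5 and cct-6 with alh-9. Heat shock and chaperone genes had 9 of 53, led by hsp-90 (185.8), hsp-3, the BiP homologue of the endoplasmic reticulum (168.5 pooled, 87.93 in replicate 1, 78.87 in replicate 2), and hsp-110 (131.4, shared with the proteasome gene rpn-3). The hsp-1 peak (129.2), at a constitutive Hsp70 gene, is among the GCGCGC windows shown above. Endoplasmic reticulum stress genes had 7 of 17, a list that also holds hsp-3. After it came pdi-6, a protein disulphide isomerase gene (141.7), and xbp-1, a transcription factor gene at the centre of the unfolded protein response (140.8, with 89.4 in replicate 1 and 50.49 in replicate 2). The genes of calreticulin (crt-1, 107.4), GRP94 (enpl-1, 92.2), ATF6 (atf-6, 82.03) and pdi-2 (81.5) followed. Proteasome subunits had 3 of 33 at the 500 and 17 of 33 at any IDR summit. The 3 are 17.6% of those 17, beside 29.6% for all protein-coding genes with an IDR summit. Of 15 genes of CDC-48 and its cofactors, cdc-48.1 and ufd-2 (85.52) were present.

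Mitochondrial and vacuolar ATPase genes were also represented. ATP synthase subunits had 5 of 10, namely atp-1, the alpha subunit (173.9), atp-3 (112.2), asb-2 (93.16), asg-2 (80.88) and atp-2, the beta subunit (78.2). All but the asb-2 peak were shared, atp-1 with mcrs-1, atp-3 with F27C1.2, asg-2 with glr-6 and atp-2 with C34E10.10 and C34E10.12. Vacuolar ATPase subunits had 3 of 20, led by vha-1 (146.2) and vha-8 (132.8).

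Of 20 synMuv B and DREAM genes, 5 (25%) were at the 500 and 8 (40%) at any IDR summit. They were lin-54, the DNA-binding subunit of the MuvB core (rank 39), lin-9, another core subunit (185.7 pooled, 106.4 in replicate 1, 77.56 in replicate 2), lin-53, a histone-binding RbAp protein gene (109.7), lin-36 (92.67) and lin-35, the retinoblastoma gene. The lin-35 peak, shared with vps-51, had 82.83 pooled, 50.15 in replicate 1 and 36.39 in replicate 2, with its summit 168 bp from the 5' end. The lin-54 and lin-53 peaks were shared as well, with rpl-12 and nra-2. Cell cycle and DNA replication genes, among which DREAM is known to find targets, had 2 of 44 at the 500, knl-3 (101.7) and pcn-1 (89.31), and 13 of 44 (29.5%) at any IDR summit.

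Spliceosome genes had 4 of 47, led by rsp-2 (134.7), and actin and tubulin genes 2 of 21, tba-2 (139.5) and tbb-1 (129.1). Histone genes had 1 of 72, his-37 (222.5 pooled, 129.8 in replicate 1, 92.17 in replicate 2). At any IDR summit were 17 of the 47 spliceosome genes and 7 of the 72 histone genes. Of those, 23.5% and 14.3% were at the 500, beside 29.6% for all protein-coding genes with an IDR summit. The large gene families of worms were nearly empty. Chemoreceptor genes had 1 of 1366, sri-5 (110.8), C-type lectins 1 of 240, clec-126, F-box genes 1 of 322, fbxb-85 (80.09), nuclear hormone receptors 1 of 269, nhr-47 (107.7), and cuticle collagens 0 of 174. Of these, the clec-126 summit was also at a pair of tRNA genes, fbxb-85 shared its peak with hex-3 and nhr-47 with dnj-19. Low shares were not particular to the 500. Any IDR summit lay at 0.366% of chemoreceptor genes, 0.417% of C-type lectins and 1.24% of F-box genes. For nuclear hormone receptors it was 3.72% and for cuticle collagens 3.45%, beside 6.99% of all protein-coding genes. Near-identical copies of histone, sls-2 and ribosomal protein genes may divide or share reads.

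**Figure D5:**
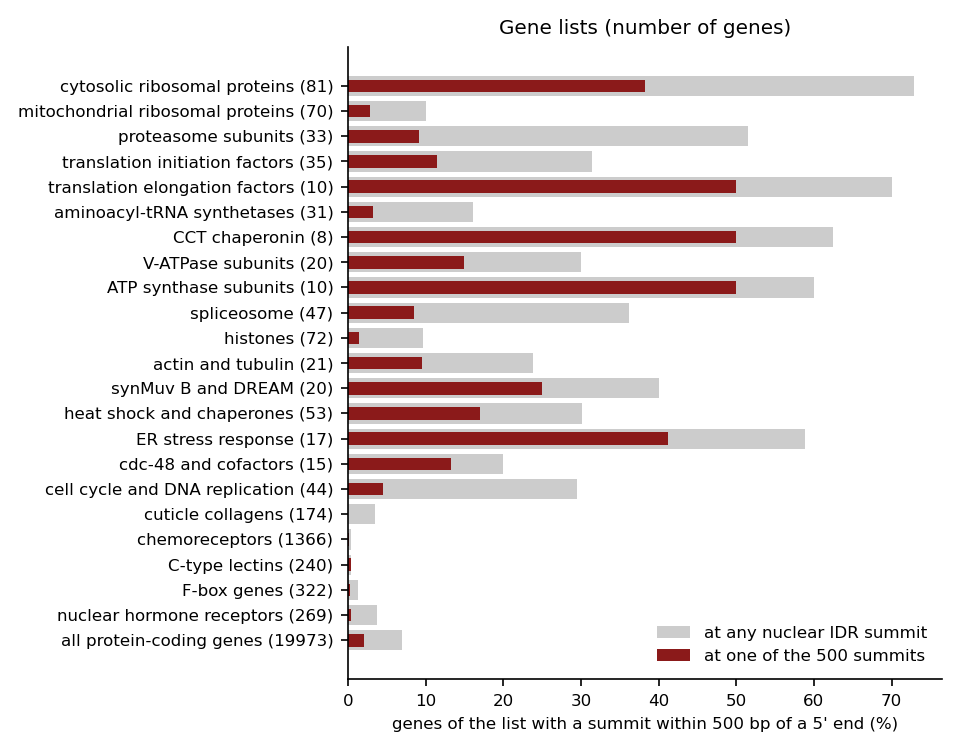
Share of the genes of each list (%) with one of the 500 summits (red) or any nuclear IDR summit (grey) within 500 bp of a 5' end, with the number of genes in brackets. Translation elongation, CCT chaperonin and ATP synthase genes stand at 50% and cytosolic ribosomal protein genes at 38.3%, beside 2.07% of all protein-coding genes. A summit shared by several genes counts for each of them.

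Outside promoters, introns and exons also held high peaks. The highest intronic summits were those nearest to cest-16 (222.6) and Y41G9A.17 (178), both on X and both with GCGCAGGG, and Y111B2A.12 (161.7). Among the 3 in coding exons, the highest was on X, nearest to C41A3.2 but 15197 bp upstream of its 5' end. It had 145.2 pooled, 87.9 in replicate 1 and 55.17 in replicate 2, and also held GCGCAGGG. The highest in 3' UTRs was nearest to bed-2 (218.4), and in exons of non-coding RNAs and pseudogenes nearest to cmd-1, the calmodulin gene, 4772 bp away (227.5).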

How the data were processed

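Peak lists of LIN-13 ChIP-seq from 2 biological replicates of whole L4 larvae were used, which the labels put in 1 group. Per the deposited listings, a relaxed list of 30000 peaks was made with a control library for each replicate and for the pool, and an IDR list was derived from these. The signal value of each peak was deposited by the authors without a stated scaling. It was used to rank peaks within a list and to give each replicate's part of the summed value. The aligner, the peak caller and the cut-off of the IDR step were not given in the sources used here, and depth per replicate is unknown.

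Nuclear IDR peaks on build ce11 were ranked by signal value. A replicate's value is that of its highest relaxed peak overlapping by at least 1 bp, ranked among its nuclear peaks. Summits were placed on the Ensembl annotation, release 115, of the WBcel235 genome, and coordinates count from 1. Each summit outside promoter windows took the first class that held it, in the order coding exon, 5' UTR, 3' UTR, intron, exon of non-coding RNA or pseudogene, intergenic. Shares were compared with Fisher's exact tests, two-sided, with Benjamini-Hochberg adjustment within each family and a threshold of 0.05. Sequence windows were read from RefSeq's WBcel235 assembly, whose soft-masked bases served as repeats. The steps were tested on simulated data. Tests used SciPy 1.17.1 and statsmodels 0.14.6, tables NumPy 2.4.6 and pandas 2.3.3, and figures matplotlib 3.10.9, under Python 3.11.15.

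The members, the 22 gene lists and the tests were chosen with earlier results of these data known. Genes named were the nearest to the 25 highest peaks, to the 3 peaks on either side of the limit, to the 3 highest of each position class and non-coding kind, to the 3 with the widest rank differences or widths in each direction, up to 3 members per list, and lin-13, unc-119 and lin-35. The other list members and examples, and those with the recurring words, were named after their values were seen.

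Alternatives were the 250 or 1000 highest peaks, the next 500 peaks as the comparison, each replicate alone, 1 summit per 10 kb, other distances, overlaps and windows, the ce10 list for chromosome shares, and strata of GC content. Promoter or other summits alone for non-coding genes, peaks of the commonest width and peaks without ribosomal protein genes were added after seeing the data. Fitting or testing between animals was not possible with 1 group.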

Additional observations from a re-analysis of the deposited data

How the results depend on the processing

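No paired analysis was possible because the labels give 1 group. Values here are differences in percentage points, the 500 highest minus the others, unless named as counts. No difference that passed its test in the main setting changed sign under the alternatives run. The neighbour difference of 6.78 points was 5.42 (Fisher's exact p = 0.0543) with the 250 highest peaks, 3.19 (p = 0.0749) with the 1000 highest and 2.47 (p = 0.0911) for neighbours within 1000 bp. The promoter difference of 10.8 points was 3.95 at 200 bp. Against the next 500 peaks the shared promoter difference was 5.26 and the repeat difference -2.4. The repeat difference was also -3.27 (Fisher's exact p = 0.0666) where at least 50% of the peak was masked and -2.34 for peaks of the commonest width.

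Counts of position classes called were 2 with the 250 or 1000 highest peaks and with 1 summit per 10 kb, and 0 against the next 500 peaks, in place of 1. They ran from 0 to 2 when 1 replicate was left out: the promoter class did not pass without replicate 1 (6.31 points, adjusted Fisher's exact p = 0.0687) and introns passed without replicate 2 (-5.41 points, adjusted p = 0.0105). Non-coding kinds called were 1 with the 250 highest (the snoRNA difference of 3.32 points had an adjusted Fisher's exact p = 0.0625), 1 with the 1000 highest (tRNA, -2.99 points, adjusted p = 0.0515), 1 against the next 500 peaks and 0 among promoter summits, in place of 2, and 3 for peaks of the commonest width, where other non-coding RNA genes were called higher (6.68 points, adjusted Fisher's exact p = 0.0164). Among summits outside promoter windows 2 non-coding kinds were called, snoRNA and tRNA. Chromosomes called were 1 without replicate 1 (chromosome II, -5.15 points, adjusted Fisher's exact p = 0.0428), in place of 0, and 0 without replicate 2. Motifs called were 0 against the next 500 peaks and 4 with strata of GC content (GAGA and CHR-like added), in place of 2, and 3 without replicate 2, where GAGA was called lower (-5.6 points, adjusted Fisher's exact p = 0.0194), and for peaks of the commonest width, where T-block was called lower (-4.86 points, adjusted Fisher's exact p = 0.0449). The share of ribosomal protein genes was 6.17% at 200 bp in place of 38.3%, and the share within the 500 highest of both replicates 47.6% in place of 65% with an overlap of 50%. The cause of these changes was not tested. Ranking on 1 replicate kept the promoter (tested singly, outside the 7 classes), shared promoter, repeat and neighbour calls. The unknown depth limits how far replicate values can be set against each other.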

Other observations

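Several genes had more than 1 of the 500 summits nearest to them, 21 of the 474 nearest genes in all. The gene ppfr-1, which encodes a regulatory subunit of protein phosphatase 4, had 4, with signal values of 124.5, 98.55, 97.48 and 94.2, in introns 5641 to 8204 bp from the nearest 5' end. The chromatin gene zfp-1 had 3 intronic summits (144.7, 132.5 and 83.53), pqn-41 had 3 intronic ones (128.4, 96.91 and 87.69) and sms-3 had 3 at promoters (98.78, 88.83 and 85.81). These genes were picked after their counts were seen.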
